A study of Mus musculus with 30 samples.

Results

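Transcripts of 9 digestive enzymes of the exocrine pancreas were followed through brain, kidney, liver, quadriceps muscle and spleen of wild-type and Ctcf heterozygous mice. The genes are Cela2a, Cela3b, Ctrb1, Prss2, Cpa1, Cpb1, Cel, Pnlip and Clps, taken by symbol from the 48709 genes of each count table, and all 9 were found. They were present in every spleen library, at summed levels that differed 176-fold between the lowest and the highest of the 6, and the libraries did not separate by genotype. Outside spleen most of their counts were 0 to 3, with the exceptions described below.

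The series compared adult C57BL/6 mice with 2 functional copies of Ctcf (WT) and mice with 1 functional copy (Ctcf+/-, here heterozygous or Het). Ctcf codes for a zinc-finger factor that anchors chromatin loops and insulates genes from neighbouring enhancers. Each tissue gave 3 WT and 3 heterozygous libraries from 3 mice per genotype, 30 libraries in all, and the total counts ranged from 49.8 M to 131.6 M fragments. All the mice were on the C57BL/6 background. Heterozygosity was not limited to 1 cell type in the labels, which do not say how the organs were dissected or how old the adults were. Ctcf itself lay lower in all 3 heterozygous libraries than in all 3 WT libraries in each of the 5 tissues. The heterozygous spleen library of replicate 2 stood apart in the enzyme genes, so results that rest on it are given with and without it. The spleen label held against its markers, given as CPM (counts for each 1 M of library size, after TMM scaling for the make-up of the libraries). Ptprc, a surface protein of white blood cells, ranged from 624 to 1096 CPM over the 6 spleen libraries and reached at most 20.5 CPM in another tissue. Cd79a, part of the B cell receptor, ranged from 581 to 1005 CPM in spleen and reached at most 5.29 CPM in another tissue.

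The acinar cells of the exocrine pancreas make digestive enzymes, most of them as inactive precursors that are stored in granules and released into the gut. These genes are among the most highly transcribed of any cell type, and their activity depends on the acinar transcription factor complex PTF1, which binds an E-box (CANNTG) next to a TC-box (TTTCCC). In the mouse the tail of the pancreas lies against the spleen, joined to it by fat and vessels. The 9 genes fall into serine proteases (the elastases Cela2a and Cela3b, the chymotrypsinogen Ctrb1 and the trypsinogen Prss2), carboxypeptidases (Cpa1 and Cpb1), and lipid-digesting proteins (the bile salt-activated lipase Cel, the triglyceride lipase Pnlip and its cofactor Clps, colipase).

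The letters of the PTF1 site were searched in the promoters of the 9 genes, as a description. A part of these letters in the levels of the libraries was not tested. RefSeq (GRCm38.p6) windows from 250 bases before to 50 bases after the start were matched for 8 of the 9 genes, all but Clps. The E-box CANNTG, the TC-box TTTCCC and the related letters TGGGAA were searched on both strands. CANNTG was found in 7 of the 8 windows, TTTCCC in 5 and TGGGAA in 6, beside 72.3%, 25.2% and 25.6% of all 32817 windows of 300 bases. The run TTTCCCA, in which TTTCCC overlaps the reverse complement of TGGGAA, was added to the search after the matches were seen. It stood in 5 of the 8 windows, those of Cela2a, Ctrb1, Prss2, Cpa1 and Cel, and in 8.06% of all windows. A match describes the letters only. The 250 bases before the RefSeq start are printed for 4 genes that hold the run, because it is what these promoters share most against the background, and for Cpb1, which holds CANNTG and neither of the other motifs. Capitals mark the matches. The stretches lie at chr8:111691011-111691260 (minus strand), chr6:41521526-41521775 (plus), chr6:30638968-30639217 (plus), chr2:28563404-28563653 (minus) and chr3:20275734-20275983 (minus).
Ctrb1: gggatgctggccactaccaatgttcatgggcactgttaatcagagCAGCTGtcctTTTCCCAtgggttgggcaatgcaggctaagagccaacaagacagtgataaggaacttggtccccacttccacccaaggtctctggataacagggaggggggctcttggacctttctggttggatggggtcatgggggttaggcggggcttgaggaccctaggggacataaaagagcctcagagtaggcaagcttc
Prss2: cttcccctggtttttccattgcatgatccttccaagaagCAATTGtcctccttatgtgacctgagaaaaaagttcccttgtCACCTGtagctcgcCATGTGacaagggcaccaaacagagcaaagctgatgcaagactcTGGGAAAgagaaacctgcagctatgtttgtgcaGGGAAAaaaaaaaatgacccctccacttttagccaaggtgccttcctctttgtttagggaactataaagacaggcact
Cpa1: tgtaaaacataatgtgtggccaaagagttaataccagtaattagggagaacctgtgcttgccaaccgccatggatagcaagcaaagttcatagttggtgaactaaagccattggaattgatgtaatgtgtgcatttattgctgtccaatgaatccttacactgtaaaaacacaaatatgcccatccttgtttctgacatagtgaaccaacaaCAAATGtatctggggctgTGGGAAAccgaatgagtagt
Cel: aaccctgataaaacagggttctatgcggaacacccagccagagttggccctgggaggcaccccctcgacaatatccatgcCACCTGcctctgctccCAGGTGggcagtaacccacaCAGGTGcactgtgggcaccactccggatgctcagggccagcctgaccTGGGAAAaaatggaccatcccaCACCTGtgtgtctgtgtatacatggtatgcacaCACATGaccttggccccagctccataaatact
Cpb1: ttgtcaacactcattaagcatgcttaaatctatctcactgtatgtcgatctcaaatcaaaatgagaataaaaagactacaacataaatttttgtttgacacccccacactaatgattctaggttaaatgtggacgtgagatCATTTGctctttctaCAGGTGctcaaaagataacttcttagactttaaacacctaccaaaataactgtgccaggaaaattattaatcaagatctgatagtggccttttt

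Of the serine proteases, Ctrb1 (ENSMUSG00000031957, chromosome 8, 111686519 to 111691010, minus strand) had the highest level. In WT spleen replicates 1, 2 and 3 it held 4516, 3045 and 257 counts, and in heterozygous replicates 1, 2 and 3 it held 485, 43879 and 559. The heterozygous library of replicate 2 thus stood far above the other 5, WT replicates 1 and 2 came next, and the remaining WT library lay lowest, so the groups overlapped. As levels these were 24.2 ± 21.7 CPM in WT and 142 ± 240 CPM in heterozygous spleen (SD, n = 3). Per kilobase of exon, Ctrb1 stood at 2.14 to 478 CPM per kb, the highest of the 9 genes in each of the 6 libraries.

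Cela2a (ENSMUSG00000058579, chromosome 4, 141814962 to 141826160, minus strand), an elastase precursor, held 2274, 1915 and 146 counts in WT and 188, 19780 and 277 in heterozygous spleen, in the order of replicates. Cela3b (ENSMUSG00000023433, chromosome 4, 137420999 to 137430540, minus strand), another elastase gene of that chromosome, held 1266, 605 and 63 in WT and 89, 9697 and 110 in heterozygous spleen. Prss2 (ENSMUSG00000057163, chromosome 6, 41521787 to 41525079, plus strand), a trypsinogen, held 1680, 1111 and 122 in WT and 159, 13906 and 181 in heterozygous spleen. The order of the 6 libraries was the same for these genes as for Ctrb1, with heterozygous replicate 2 first and WT replicate 3 last. Mean levels were 13.3 ± 11.1 and 64.2 ± 108 CPM for Cela2a, 6.08 ± 6.19 and 31.4 ± 53.2 CPM for Cela3b, and 9.02 ± 7.99 and 45.2 ± 76.1 CPM for Prss2, in WT and heterozygous spleen (SD, n = 3). Exons of Cela2a overlap those of Casp9 and Ctrc, and Prss2 belongs to a trypsin family with similar copies. Fragments that overlap several genes or align to several places were not counted, so the values of both genes are uncertain.

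The carboxypeptidases trim amino acids from the end of peptides. Cpa1 (ENSMUSG00000054446, chromosome 6, 30639218 to 30645363, plus strand) held 1758, 1184 and 101 counts in WT and 152, 13465 and 171 in heterozygous spleen. Cpb1 (ENSMUSG00000011463, chromosome 3, 20248264 to 20275733, minus strand), whose product removes basic residues, held 1504, 1189 and 120 in WT and 152, 12935 and 208 in heterozygous spleen. Both genes followed the same order of libraries. Their levels were 9.43 ± 8.46 and 43.7 ± 73.7 CPM for Cpa1, and 8.64 ± 7.20 and 42.1 ± 70.7 CPM for Cpb1 (SD, n = 3).

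Among the lipid-digesting proteins, Pnlip (ENSMUSG00000046008, chromosome 19, 58670365 to 58681786, plus strand), the main triglyceride lipase of the gut lumen, held 3467, 2181 and 226 counts in WT and 291, 28269 and 394 in heterozygous spleen. Cel (ENSMUSG00000026818, chromosome 2, 28555795 to 28563403, minus strand) held 1239, 993 and 103 in WT and 133, 11099 and 172 in heterozygous spleen. Clps (ENSMUSG00000024225, chromosome 17, 28558210 to 28560766, minus strand), which anchors pancreatic lipase to fat droplets, held 668, 397 and 37 in WT and 60, 4826 and 81 in heterozygous spleen. Again heterozygous replicate 2 was highest and WT replicate 3 lowest. Levels were 18.2 ± 16.6 and 91.8 ± 155 CPM for Pnlip, 7.16 ± 5.92 and 36.1 ± 60.7 CPM for Cel, and 3.43 ± 3.22 and 15.7 ± 26.4 CPM for Clps in WT and heterozygous spleen (SD, n = 3).

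**Figure D1:**
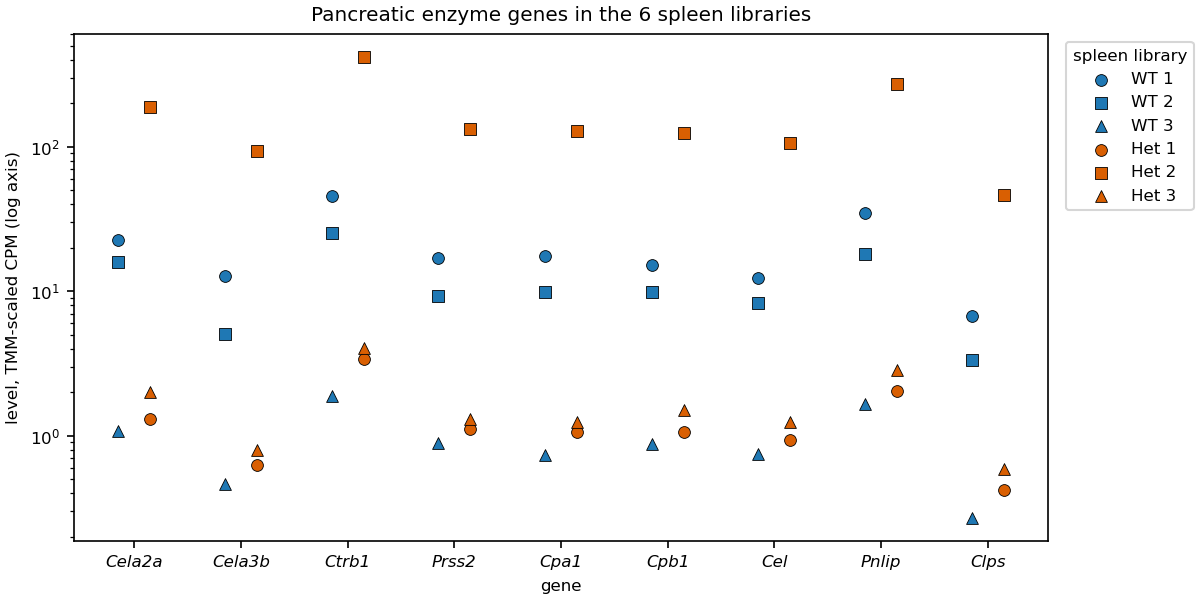
Level of each of the 9 genes (horizontal axis) in each spleen library, in TMM-scaled CPM on a log axis. Blue points are WT and orange points heterozygous libraries, with the marker shape giving the replicate number. For every gene the heterozygous library of replicate 2 is highest and the WT library of replicate 3 lowest, as for Ctrb1 at 420 and 1.88 CPM.

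The order of the 6 spleen libraries was identical for 9 of 9 genes: heterozygous 2, WT 1, WT 2, heterozygous 3, heterozygous 1 and WT 3. Summed over the genes, the levels in that order were 1511, 184, 106, 15.6, 11.9 and 8.58 CPM. The highest library held 8.19 times the level of the next, and the 3 WT libraries alone covered a 21.5-fold range. Heterozygous replicate 2 contributed 98.2% of the summed heterozygous level. The 9 genes took 0.194% of all counts in that library (95% exact binomial interval 0.193% to 0.195%) and 0.00132% in WT replicate 3 (0.00125% to 0.00140%), intervals that cover counting error only. In bulk RNA, more cells that hold these transcripts and more RNA per cell cannot be told apart. The source of the transcripts was not tested.

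Against these ranges the make-up of the enzyme counts was steady. Ctrb1 took 21.9% to 28.4% of the counts of the 9 genes in the 6 spleen libraries, Pnlip 17.0% to 19.2% and Cela2a 11% to 15.2%. The other shares were 8.41% to 10.4% for Prss2, 7.94% to 9.57% for Cpa1, 8.19% to 10.2% for Cpb1, 6.74% to 8.77% for Cel, 4.79% to 6.89% for Cela3b and 3.06% to 3.76% for Clps. The widest of these ranges, that of Cela3b, was 1.44-fold, while the level of the same gene covered a 202-fold range. Per kilobase of exon the order was Ctrb1, Pnlip, Prss2, Cela2a, Clps and Cpa1 in each of the 6 libraries, and Cpb1 was last in each. Cela3b and Cel exchanged ranks 7 and 8 between libraries, so these neighbours did not differ beyond the spread of the libraries.

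**Figure D2:**
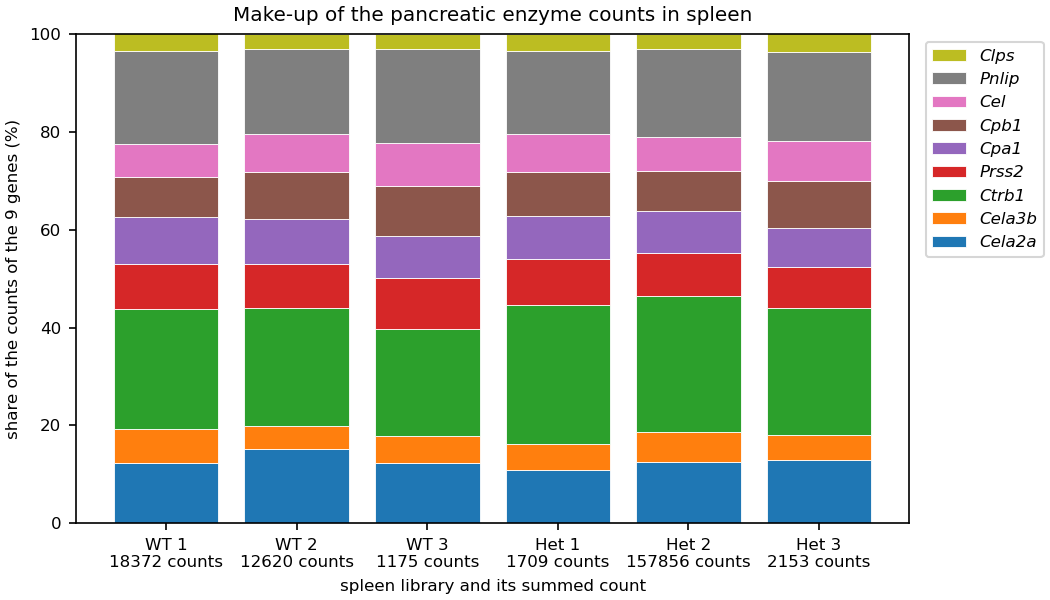
Share of each gene in the summed counts of the 9 pancreatic enzyme genes (vertical axis, %), 1 bar per spleen library, with the summed count under each bar. The bars look alike although the sums run from 1175 to 157856 counts, and Ctrb1 takes 21.9% to 28.4% of each.

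The genotype comparison asks whether losing 1 copy of Ctcf moved these genes. In spleen all 9 passed the filter on low counts and 0 of 9 were called with edgeR's quasi-likelihood test (adjusted p under 0.05), beside 0.242% of the 18615 genes tested there. The log2 fold changes, heterozygous over WT, ran from 2.19 (Clps, SE 1.85) to 2.55 (Ctrb1, SE 1.93), and each had an adjusted p of 1. At an unadjusted p under 0.05 the number was 0 of 9 with edgeR and 0 of 8 with DESeq2, which gave no p-value for Cela2a. WT and heterozygous libraries overlapped for each of the 9, beside 6.64% of the genes tested in spleen without overlap. With so low a share, 0 of 9 does not set these genes apart. They also share 1 order of libraries, so they are not 9 separate results.

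The direction rested on 1 library. Without heterozygous replicate 2 the log2 fold changes turned negative for all 9 genes, from -3.11 for Cela3b to -2.71 for Ctrb1, with an adjusted p of 0.767 for each, 0 of 9 called, and 0.151% of 19251 genes called in that fit. In the 12 other alternatives they stayed positive, between 0.40 (Prss2) and 3.52 (Cela3b), with none called. The median log2 fold change of the 9 genes was 2.32 with all libraries and -2.91 without that one, beside medians of 0 and 0.01 over all genes tested.

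In brain Cpb1 and Pnlip passed the filter and in liver Cela2a did, and none of these was called, beside 0.0157% of genes called in brain and 0.0193% in liver. The log2 fold changes were 0.46 for Cpb1 in brain (SE 0.45), 0.04 for Pnlip in brain (SE 0.26) and -0.49 for Cela2a in liver (SE 0.37), each with an edgeR adjusted p of 1 and unadjusted p-values of 0.340, 0.868 and 0.213. WT and heterozygous libraries overlapped for these 3, beside 7.83% of genes without overlap in brain and 8.99% in liver. In kidney and muscle none of the 9 had enough counts to be tested, and 0.0211% and 0.0249% of genes were called there. A test of whether the genotype effect differed between the 5 tissues, on all 30 libraries, called 0 of 9, beside 0.758% of 24262 genes. For 6 of the 9 it could not compare genotype effects between tissues, because they passed the filter on low counts through spleen alone. For Cela2a, Cpb1 and Pnlip the unadjusted p-values of the edgeR interaction test were 0.448, 0.446 and 0.272.

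Spleen was then compared with the other 4 tissues. Only Cela2a, Cpb1 and Pnlip passed the filter on low counts in the 24 libraries of those tissues. The 6 other genes entered the fit of 30 libraries through spleen alone, which fixed their direction, so they are described by their counts and not by this test. Cpb1 was higher in spleen by 8.40 on the log2 scale (SE 0.60, edgeR adjusted p 1.32e-12), Pnlip by 9.99 (SE 0.68, adjusted p 5.74e-13) and Cela2a by 10.67 (SE 0.80, adjusted p 4.86e-11), as the mean of the spleen groups over the mean of the other groups. In the same fit 42.2% of 24262 genes were called higher in spleen and 77.8% in either direction. That fit took the 30 libraries as independent, though the labels do not say whether the tissues share mice. Many of the other groups were at 0 to 3 counts, so the size of these differences depends on the small count that edgeR adds. Scaling by total counts gave 8.89, 10.46 and 11.01, and moved the median of all genes from -0.10 to 0.53 and the share of calls that were higher in spleen from 54.3% to 66.5%. Without heterozygous replicate 2 of spleen the differences were 5.84, 7.34 and 7.99, still called. Library by library, the lowest spleen library lay above the highest of the 24 other libraries for 6 of the 9 genes. The exceptions were Cela2a, Ctrb1 and Clps, which had 1.33, 3.80 and 0.331 CPM in a liver library against 1.07, 1.88 and 0.270 CPM in WT spleen replicate 3.

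Outside spleen the values of the 9 genes were few. Over 9 genes and 6 libraries, more than 3 counts were found in 54 of 54 values in spleen, 14 of 54 in brain, 15 in kidney, 11 in liver and 5 in muscle. A count of 0 allows up to 3 counts, which is 0.0174 to 0.0839 CPM depending on the library and covers counting error only. Cela3b, Prss2, Cpa1, Cel and Clps were at a median of 0 to 2 counts in each of these 4 tissues.

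A few of the genes were above 3 counts in every library of another tissue: Pnlip and Cpb1 in brain, and Cela2a in liver. Pnlip held 58, 50 and 65 counts in WT brain and 74, 108 and 84 in heterozygous brain. Scaled for depth the genotypes overlapped, at 0.686 ± 0.214 and 0.738 ± 0.0957 CPM (SD, n = 3). Clps, the cofactor of this lipase, was at 0 in 5 of the 6 brain libraries and at 2 counts in the other. Cpb1 held 8 to 25 counts in brain, and in kidney and muscle, at 3 to 15 and 2 to 10 counts, it passed 3 counts in 5 and 4 of the 6 libraries. In liver, Cela2a held 49, 36 and 56 counts in WT and 41, 27 and 44 in heterozygous libraries (1.17 ± 0.164 and 0.846 ± 0.330 CPM), while Cela3b held at most 1. Casp9, whose exons overlap those of Cela2a, was at 30.7 ± 2.57 CPM in WT liver, 22.6 ± 0.958 in WT kidney and 18.4 ± 1.43 in WT brain, and Cela2a held 0 to 12 counts in kidney and 0 or 1 in brain. The part of Casp9 in the liver counts of Cela2a was not tested.

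**Figure D3:**
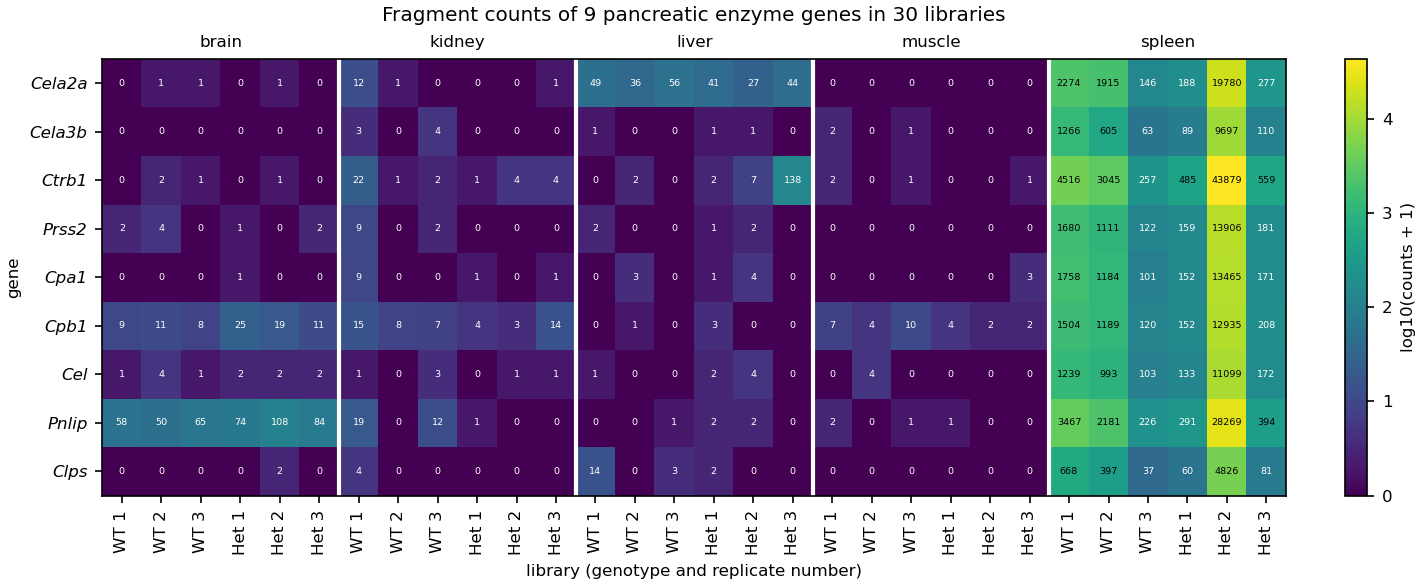
Fragment counts of the 9 genes (rows) in the 30 libraries (columns, grouped by tissue), with the count printed in each cell and the colour giving log10(counts + 1). Spleen columns are filled for every gene, while elsewhere the fullest rows are Pnlip and Cpb1 in brain (50 to 108 and 8 to 25 counts) and Cela2a in liver (27 to 56 counts), with Ctrb1 at 138 counts in heterozygous liver replicate 3.

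A pair of libraries outside spleen was singled out after the values were seen. The kidney library of WT replicate 1 held counts of all 9 genes: 22 of Ctrb1, 19 of Pnlip, 15 of Cpb1, 12 of Cela2a, 9 each of Prss2 and Cpa1, 4 of Clps, 3 of Cela3b and 1 of Cel. Ctrb1 took 23.4% of these 94 counts (95% exact binomial interval 15.3% to 33.3%), Pnlip 20.2% (12.6% to 29.8%) and Cela2a 12.8% (6.77% to 21.2%). These intervals reach the shares of the same genes in spleen, as do those of the other genes except Cel, whose 1.06% (0.0269% to 5.79%) lay below its lowest share there. At 1 to 22 counts per gene the intervals are wide, so reaching the spleen shares does not show a likeness to spleen. The 5 other kidney libraries held 7 to 30 counts in all. The heterozygous liver library of replicate 3 differed: Ctrb1 stood at 138 counts (75.8% of the sum, 68.9% to 81.9%), Cela2a at 44 and the 7 other genes at 0. In that library Reg1, which encodes a secreted protein of acinar cells, held 71 counts, beside 0 or 1 in the 5 other liver libraries.

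Lists of other pancreatic and neighbouring tissue genes were read in the same spleen libraries, and for each list the members with the highest spleen level are named. Of 19 further secreted enzymes, 15 reached more than 3 counts in a spleen library, and all 15 were highest in heterozygous replicate 2. Amy2a5 and Prss1 passed 3 counts in that library alone, so the cutoff fixed their highest library. The summed level of the 19 genes ran from 14.0 to 754 CPM. Try4, a trypsinogen of the same cluster as Prss2, held 1174, 996 and 133 counts in WT and 122, 15077 and 196 in heterozygous spleen. Pnliprp1, a relative of Pnlip, held 1383, 863 and 70 in WT and 100, 10420 and 103 in heterozygous spleen. For both, heterozygous replicate 2 was highest and WT replicates 1 and 2 came next. Cela1, an elastase also made outside the pancreas, held 3902, 3484 and 1401 in WT and 1704, 25433 and 1095 in heterozygous spleen, and reached 145 CPM in kidney. The 5 Amy2a amylase genes, near-identical copies whose fragments align to several places, held at most 31 counts in any spleen library, so their values are uncertain.

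The 13 inhibitor, granule and regenerating protein genes of acinar cells all reached more than 3 counts, and 13 of 13 had their highest level in heterozygous replicate 2. The size of the excess differed. Erp27 was nearly level, at 3.42, 1.89 and 2.74 CPM in WT and 2.98, 3.61 and 2.82 CPM in heterozygous spleen. Reg3a passed 3 counts in that library alone, so the cutoff fixed its highest library. Reg1 held 631, 475 and 28 counts in WT and 100, 5545 and 79 in heterozygous spleen. Zg16, a zymogen granule protein, held 480, 403 and 103 in WT and 96, 3801 and 137 in heterozygous spleen. Klk1, a kallikrein that kidney makes in large amounts, held 454, 322 and 434 in WT and 245, 2420 and 379 in heterozygous spleen, so only heterozygous replicate 2 stood clear of the others. Of the tested genes of these lists 0 of 11 enzymes and 0 of 11 inhibitor and granule genes were called by genotype in spleen with edgeR, and their median log2 fold changes turned from 2.22 and 2.09 to -2.83 and -2.07 without that library.

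Of 6 regulators of acinar cells 5 reached more than 3 counts in a spleen library, and 2 of these 5 were highest in heterozygous replicate 2. Ptf1a, the DNA-binding subunit that gives the PTF1 complex its name, held 4, 2 and 0 counts in WT and 0, 2 and 0 in heterozygous spleen and is named here after its values were seen. Cckar, a receptor for the hormone cholecystokinin, held 10, 13 and 6 in WT and 5, 50 and 7 in heterozygous spleen, highest in that library. Rbpjl, another subunit of the PTF1 complex, held 47, 65 and 111 in WT and 100, 80 and 113 in heterozygous spleen. The summed level of the 6 regulators was 2.30 to 3.25 CPM in WT and 3.43 to 4.56 CPM in heterozygous spleen, a 1.98-fold range. Bhlha15, which also acts in plasma cells, made up most of it, with 193 to 323 counts in WT and 215 to 544 in heterozygous spleen.

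Endocrine and duct genes were low. Of 12 islet genes 8 reached more than 3 counts, all 8 highest in heterozygous replicate 2, while Pdx1, Nkx6-1, G6pc2 and Slc30a8 were at 0 in each spleen library. Sst, Ppy, Iapp and Pcsk2 passed 3 counts in heterozygous replicate 2 alone, so the cutoff fixed their highest library. The summed level of the 12 islet genes was 0.0876 to 0.963 CPM in WT and 0.0699 to 2.18 CPM in heterozygous spleen. Ins2, an insulin gene, held 43, 2 and 0 counts in WT and 0, 90 and 5 in heterozygous spleen. Gcg, which encodes glucagon, held 19, 21 and 12 in WT and 8, 67 and 19 in heterozygous spleen. The insulin counts were thus found mainly in the libraries with the highest and the next highest enzyme level. The summed level of 6 duct genes was 1.04 to 1.78 CPM in WT and 2.45 to 3.19 CPM in heterozygous spleen, with Cftr, the chloride channel of duct cells, at 0 or 1 count. Krt7, a keratin of simple epithelia, held 115, 66 and 84 counts in WT and 125, 144 and 153 in heterozygous spleen, and its levels overlapped. Spp1, a secreted phosphoprotein that reached 1895 CPM in kidney, held 41, 27 and 46 in WT and 167, 143 and 214 in heterozygous spleen, without overlap. It was not called (log2 fold change 2.09, SE 0.32, edgeR adjusted p 0.081), and 0 of the 3 duct genes tested were. The kidney genes given below also separated the genotypes in spleen, and their part in the Spp1 counts was not tested.

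Markers of other organs did not share 1 pattern with the enzymes. The 8 fat genes followed the same order of libraries in their sum, at 2.96 to 7.44 CPM, but over a 2.52-fold range. Of the 6 fat genes above 3 counts, 0 followed that order alone. Fabp4 had the highest mean level of the list, at 1.77 to 4.48 CPM, while Adipoq held 7 to 12 counts. The 7 stomach genes summed to 0.234 to 0.372 CPM, the 8 intestine genes to 8.28 to 11.6 CPM, the 8 muscle genes to 14.4 to 23.7 CPM and the 8 brain genes to 79.4 to 98.1 CPM. Liver and kidney genes separated the genotypes in spleen: 12 liver genes summed to 29.1 to 36.8 CPM in WT and 0.293 to 0.565 CPM in heterozygous libraries, and 10 kidney genes to 0.943 to 1.68 CPM in WT and 11 to 20.9 CPM in heterozygous libraries. Alb, the main plasma protein of liver, held 2091, 1989 and 2386 counts in WT and 2, 5 and 10 in heterozygous spleen. Of the liver genes 10 of 12 were called lower in heterozygous spleen with edgeR and of the kidney genes 4 of 10 higher, beside 0.242% of all genes called there, or 9 and 1 without heterozygous replicate 2. All these calls were lost, with 0 genes called in spleen, under a replicate block and without WT replicate 1, 2 or 3. Those fits had 517 and 515 to 678 genes at an unadjusted p under 0.05 with edgeR. At least 10 counts in every library also gave 0 (430 unadjusted), but this filter drops genes near 0 in 1 genotype before the test. Kap, at 0 counts in each WT library, and Alb, at 2 in heterozygous replicate 1, could not be called there. Apoa2, at 20 counts or more, stayed in and was not called. Without heterozygous replicate 1 or 3, 1 gene was called among all genes. The enzyme genes followed neither order. The part of RNA from other organs in the enzyme levels was not tested.

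**Figure D4:**
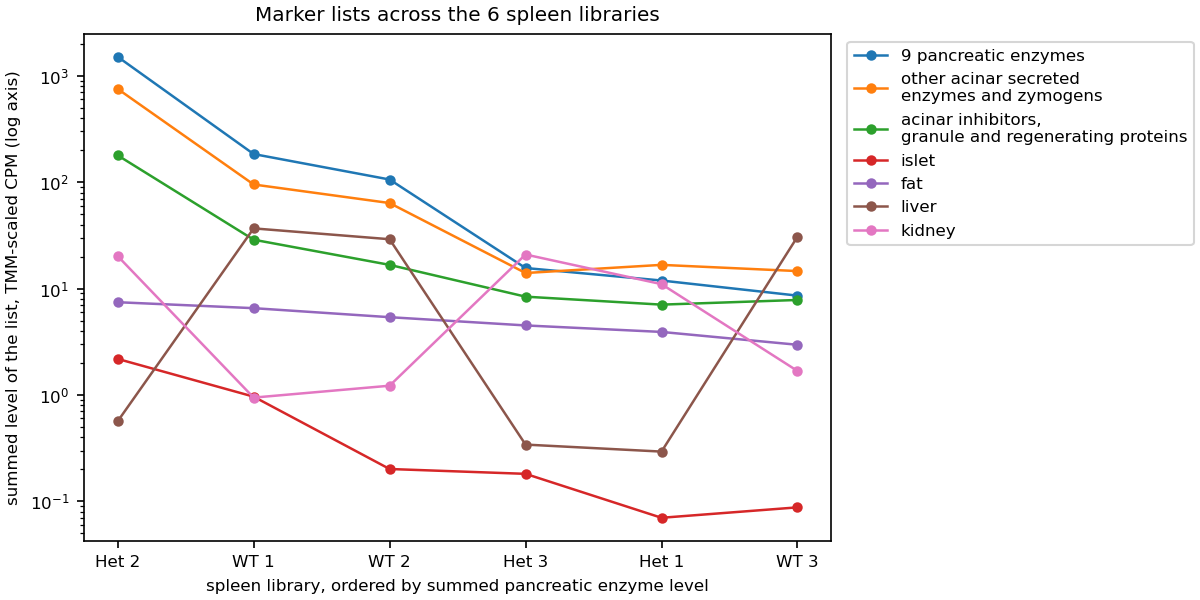
Summed level of each gene list (CPM, log axis) in the 6 spleen libraries, ordered from the highest to the lowest enzyme level, with a line joining the points of 1 list. The 9 enzymes fall from 1511 to 8.58 CPM and the lists of other acinar enzymes and of inhibitor and granule genes are also highest at the left.

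Genes were also ranked by how closely their log2 level followed the summed level of the 9 enzymes, as a description. Over all 30 libraries and 25981 genes the 10 closest had Pearson r of 0.920 to 0.963, and 3 of them were acinar genes of the lists: Ctrl, a chymotrypsin-like protease, Try4 and Reg1. The others with a gene name were Rhog, Pnp2, Actb, Pced1b and Cmas. The 30 libraries share their tissues, so a gene high in every spleen library scores well whatever it does among them. Actb, for instance, held 301429 to 389356 counts in the 6 spleen libraries. Over the 6 spleen libraries alone, a choice added after seeing the data, the closest of 20629 genes was Sycn, a zymogen granule protein, and 5 of the first 10 and 9 of the first 20 belonged to the acinar lists. Sycn held 365, 188 and 5 counts in WT and 15, 2494 and 24 in heterozygous spleen. A correlation does not weigh the size of a change, so genes with small changes also ranked high. Zbtb45 stood at rank 6 with 1592 to 1998 counts and Smarca4 at rank 10 with 11673 to 15396.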

How the data were processed

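RNA-seq covered 30 libraries, 3 WT and 3 Ctcf heterozygous in each of 5 tissues, grouped by their titles. Within a tissue, p-values measure the spread between mice, 3 per genotype per the series' design text. The main fits of all 30 libraries took them as independent, with 1 estimate of spread per gene. The labels do not say whether libraries of different tissues come from the same mice, and any such sharing was not modelled. The authors deposited 1 table of raw counts for each tissue. Per the file headers, these are fragments per gene from featureCounts 1.5.0-p3 on GRCm38 with Ensembl release 86. Fragments were counted over exons without strand, and those with several alignments or several overlapping genes were left out. The submitters' processing notes name FastQC, STAR and DESeq2, whose versions are not given in the sources used here. Replicate pairs differed by more than sampling noise (chi-square per degree of freedom 15.4 to 640 over 30 pairs), so none was merged.

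Counts were tested with edgeR 4.0.16 in R 4.3.3: filterByExpr, TMM scaling and the quasi-likelihood F-test, with p-values adjusted by Benjamini-Hochberg across the genes in a fit and called at an adjusted p under 0.05. Each tissue was fitted alone for genotype, and all 30 libraries together for spleen against the other tissues and for the interaction. Levels are CPM with TMM over the 30 libraries. The scripts were tested on simulated data. The 9 genes and the gene lists were chosen with earlier results of these data known. Of 135 list symbols 134 were matched. The text names all 9 genes, up to 3 genes per list by spleen level, and the 10 genes of most similar pattern, without unnamed gene models. A few further genes are named after their values were seen, to show a limit.

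Alternatives were DESeq2 1.42.0, other scalings, filters of 1 count in all or 10 in every library, a fit of 30 libraries, a replicate block, and leaving out each library. Same-numbered WT and heterozygous libraries had correlated deviations above 0.1 in every pair in brain (0.207, 0.383 and 0.537) and kidney (0.209, 0.190 and 0.212), not in liver, muscle or spleen. The labels do not state what the numbers share.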

Additional observations from a re-analysis of the deposited data

How the results depend on the processing

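In spleen, 0 of the 9 enzyme genes were called by genotype under every alternative run, where DESeq2 gave no p-value for Cela2a. The main edgeR fit called 0.242% of all genes tested there. None was called in the other tissues either, but this was largely set by their low counts. The main filter kept only Cpb1 and Pnlip in brain, Cela2a in liver, and none of the enzyme genes in kidney or muscle. Cela2a, Cpb1 and Pnlip, which passed the filter without spleen, stayed higher in spleen than in the other tissues. The direction in spleen was not stable. With 1 library left out, the log2 fold changes ran from -3.01 to 2.92 (Cela2a), -3.11 to 3.52 (Cela3b), -2.71 to 3.39 (Ctrb1), -2.91 to 3.16 (Prss2), -3.04 to 3.05 (Cpa1), -2.76 to 2.97 (Cpb1), -2.73 to 3.01 (Cel), -2.91 to 3.22 (Pnlip) and -2.78 to 3.14 (Clps), with each negative value from leaving out heterozygous replicate 2. In brain, Cpb1 ran from -0.07 (without heterozygous replicate 1) to 0.72. Pnlip ran from -0.16 (without WT replicate 2) to 0.31, with -0.01 and -0.03 without heterozygous replicates 1 and 3. The summed spleen level covered a 147-fold range when scaled by total counts. Of the 10 genes of most similar pattern, 1 was shared with the ranking by Spearman correlation, 4 with log2(CPM + 1), 6 without spleen heterozygous replicate 2 and 1 with spleen libraries only. The last 2 choices were added after seeing the data.

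Counts of all genes called by genotype moved widely, and the cause was not tested. In the order brain, kidney, liver, muscle, spleen they were 3, 4, 3, 4 and 45 with edgeR and 28, 175, 72, 159 and 187 with DESeq2. A filter of at least 1 count gave 6, 45, 16, 66 and 74, and the fit of all 30 libraries 1, 13, 37, 229 and 250. At least 10 counts in every library gave 2 for kidney and 0 for spleen (430 at an unadjusted p under 0.05 with edgeR). That filter drops genes near 0 counts in 1 genotype before the test. With the replicate number as a block the counts were 22, 21, 7, 118 and 0 (517 unadjusted for spleen), and the block changed no call of the 9 genes. Brain gave 0 to 1 calls with 1 library left out, and muscle 1 to 2, so each library of these tissues moved the count by over 1.5 times. The brain fits with 0 calls lacked WT 1, heterozygous 1 or heterozygous 2 and had 363 to 403 genes at an unadjusted p under 0.05 with edgeR. Kidney gave 3 to 56, with 56 when heterozygous 3 and 9 when heterozygous 1 was left out. Liver gave 1 to 17, with 17 when heterozygous 3 and 1 when heterozygous 1 or 2 was left out. Spleen gave 0 to 29: 0 lacking any WT library (515 to 678 unadjusted), 1 lacking heterozygous 1 or 3, and 29 lacking heterozygous 2. Scaling by total counts turned the calls higher and lower from 2 and 2 to 1 and 2 for kidney, from 2 and 1 to 2 and 0 for liver, and from 2 and 2 to 2 and 1 for muscle. Of 182 alternative levels of the 9 genes, 7 moved by more than the spread between replicates, none of them in spleen. Outside spleen most values were at or under the 3 counts that a count of 0 allows, so differences between genotypes in these values were not detectable.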
